A study of Rattus norvegicus with 8 samples.

Results

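The miR-29 family was examined in small RNA sequencing of whole rat kidney after a carcinogenic treatment with aristolochic acid (AA), a nephrotoxic compound of Aristolochia plants. Its members were the rows of the count table whose names begin with rno-miR-29a, rno-miR-29b or rno-miR-29c, which gave 6 of the 620 miRNAs listed. They comprised 3 mature miRNAs (rno-miR-29a, rno-miR-29b and rno-miR-29c) and 3 passenger arms, the less abundant strand of the same hairpin, marked with an asterisk (miR-29a*, miR-29b-2* and miR-29c*). The passenger arm of the other miR-29b hairpin was not analysed here. All 8 rats were male Big Blue Transgenic animals of the strain labelled Fisher 344, which carry a mutation reporter in every cell, and all were 18 weeks old at the end. The 4 AA-treated rats were gavaged from 6 weeks of age, 5 times weekly, with AA as the sodium salt (10.0 mg/kg in a volume of 4 ml/kg), and 0.9% sodium chloride was given to the 4 control rats at the same times. The shared protocol gives 12 weeks of treatment, whereas the individual descriptions count up from 12 to 15 weeks with the rat number in both groups, so the rats numbered 4 carry the label of 15 weeks. Each library came from a piece of 1 kidney and held 13412373 to 15616670 counts on miRNAs.

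The members of the miR-29 family are known as repressors of extracellular matrix genes. They bind mRNAs of collagens, elastin and fibrillin, and TGF-β signalling, the main driver of scarring in the kidney, lowers their level in many models of renal fibrosis. Other known targets are DNA methyltransferases and the survival factor Mcl1. Setting AA-treated against control rats asks whether a treatment that injures the kidney changed the amount of these miRNAs, their proportions to each other or the balance between the arms of their hairpins. In bulk tissue, fewer cells of a type and less RNA per cell cannot be told apart.

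The mature sequences are shown because they set what the family shares and what separates its counts. They were taken from RefSeq (assembly GRCr8), in which all 6 rows were matched by hairpin and arm, and bases 2 to 8, the seed that pairs with target mRNAs, are in capitals.
rno-miR-29a: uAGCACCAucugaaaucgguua
rno-miR-29b: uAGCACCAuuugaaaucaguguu
rno-miR-29c: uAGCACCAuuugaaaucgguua
The seed was identical in these 3 miRNAs, and no other of the 693 mature miRNA names in the RefSeq table had it. Counted from the 5′ end, miR-29a and miR-29c differed by 1 base (C10U), whereas miR-29b and miR-29c differed at 3 positions (A18G, G21U and U22A) and in length, with 23 bases in miR-29b and 22 in the other two. The motif AGUGUU, known from the 3′ end of miR-29b as a signal for import into the nucleus, began at base 18 of miR-29b and was not in the sequences of miR-29a and miR-29c. The rule by which reads that match several miRNAs were counted is not given in the sources used here, so that the single base between miR-29a and miR-29c leaves the split of their counts uncertain.

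The passenger arms are shown because their levels differed from those of the mature arms, and none shared its seed with another mature name of the table.
miR-29a*: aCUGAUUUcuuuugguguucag
miR-29b-2*: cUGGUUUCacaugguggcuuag
miR-29c*: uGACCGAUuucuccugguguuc
In GRCr8, the hairpin Mir29a lies at chr4:60617955-60618042 and Mir29b1 at chr4:60618334-60618414, both on the minus strand and 291 bases apart. Mir29b2 lies at chr13:109098831-109098911 and Mir29c at chr13:109099359-109099446, both on the plus strand and 447 bases apart. The deposited counts carry no coordinates of their own. miR-29a and miR-29a* therefore come from the locus on chromosome 4, and miR-29b-2*, miR-29c and miR-29c* from the locus on chromosome 13. The mature miR-29b of Mir29b1 and Mir29b2 is the same sequence, so its counts sum both loci.

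The 3 mature members were abundant and did not pass the thresholds for a difference between the groups. Levels are given as normalized counts, the raw counts over the median-of-ratios size factor of the library. rno-miR-29a, the most abundant, ranked 22nd of the 620 miRNAs by mean normalized count. Its normalized counts were 65843, 69860, 72861 and 56920 in control rats 1 to 4 and 61839, 68828, 76074 and 57547 in AA-treated rats 1 to 4. The lowest rat of each group was the one numbered 4, and the groups overlapped almost completely. rno-miR-29b, which ranked 40th, had 18457, 20330, 21007 and 13780 normalized counts in the control rats and 18360, 24015, 24091 and 15791 in the AA-treated rats. AA-treated rats 2 and 3 were above all control rats, while AA-treated rat 4 was below 3 of the 4. rno-miR-29c, which ranked 71st, had 6286, 8585, 8201 and 6935 normalized counts in the control rats and 5860, 8137, 8048 and 4503 in the AA-treated rats. AA-treated rats 1 and 4 were below every control rat for miR-29c, and the other two lay within the control range.

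**Figure D1:**
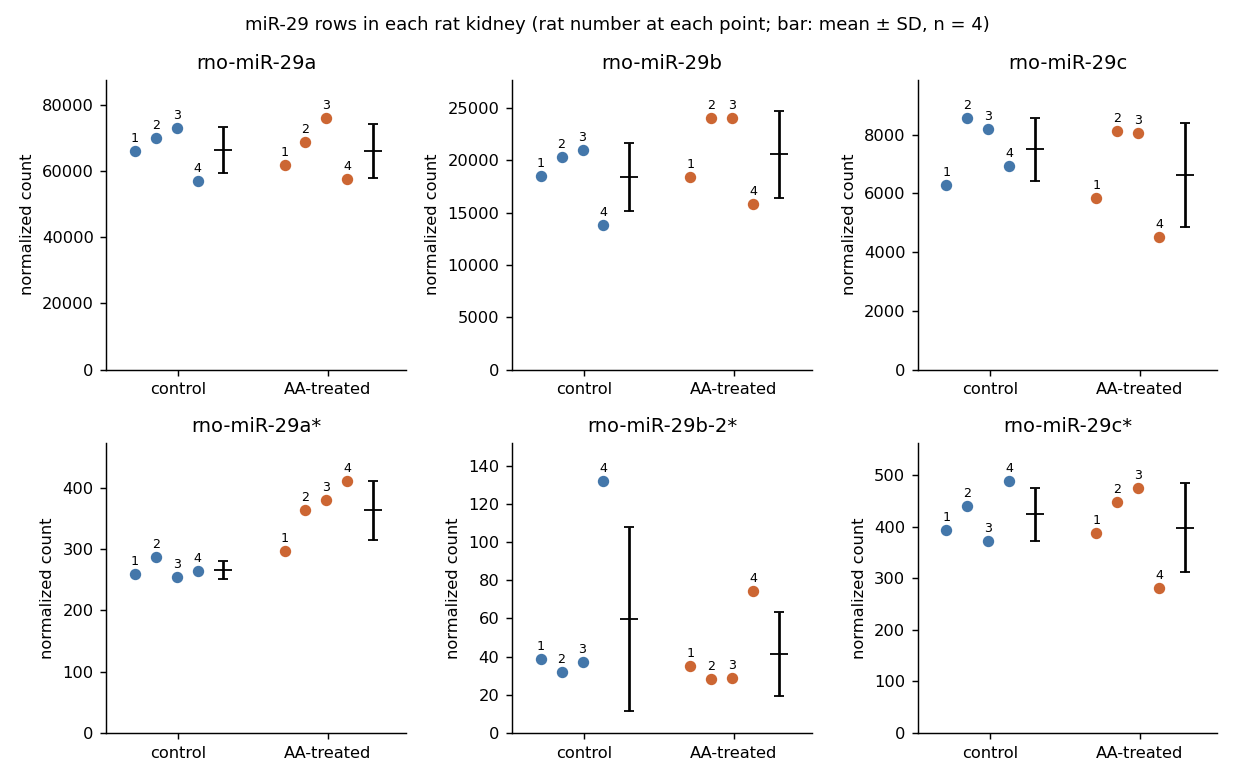
Normalized counts (y axis, linear from 0) of the 6 miR-29 rows in each of the 4 control and 4 AA-treated rats, with the rat number at each point and the group mean ± SD as a bar. The groups overlap for 5 rows, whereas for miR-29a* the AA-treated points all lie above the control points, and the rats numbered 4 stand high for miR-29b-2*.

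The quasi-likelihood test of edgeR was fitted to all 620 miRNAs together. Differential expression required a Benjamini-Hochberg adjusted p under 0.05 and group means that differed by more than 1.5-fold. By these criteria 9.03% of the miRNAs were differentially expressed and 0 of the 6 miR-29 rows. Scarce miRNAs count in this share. With a filter of 10 counts in 4 rats, 60 of 367 miRNAs were differentially expressed and 0 of the 6 miR-29 rows. At an unadjusted p under 0.05, edgeR gave 0 of the 6 rows beside 23.9% of all miRNAs, DESeq2 gave 1 beside 20.2% and limma-voom 1 beside 23.1%. The row was miR-29a* in both, and also with TMM factors, total counts, the filter on low counts, the replicate block and without both rats numbered 4. Beside it stood 147 of 620 miRNAs with TMM factors, 156 with total counts and 172 with the replicate block. With the filter there were 112 of 367, and without both rats numbered 4 there were 127 of 620. The mean of miR-29a was 66371 ± 6926 normalized counts in the controls and 66072 ± 8129 after AA (SD, n = 4 each), and its log2 fold change was -0.01 with a standard error of 0.17 and an adjusted p of 0.983 from edgeR. The 95% interval of this log2 fold change ran from -0.37 to 0.36, so that a decrease of more than 1.29-fold or an increase of more than 1.28-fold lies outside it. miR-29b had 18394 ± 3260 and 20564 ± 4163 normalized counts (SD, n = 4 each), and its log2 fold change was 0.16 with a 95% interval from -0.28 to 0.60 (adjusted p = 0.636 from edgeR). miR-29c had 7502 ± 1074 and 6637 ± 1770 normalized counts (SD, n = 4 each), and its log2 fold change was -0.18 with a 95% interval from -0.65 to 0.29 (adjusted p = 0.630 from edgeR). The direction of the difference depended on the scaling for miR-29a and miR-29c. When libraries were scaled by total counts instead, the log2 fold changes were 0.25 for miR-29a, 0.42 for miR-29b and 0.09 for miR-29c, but this scaling also moved the median over all miRNAs from 0.05 to 0.31. The median over the 6 miR-29 rows was -0.05 with the size factors and 0.21 with total counts, below that of all miRNAs in both. Without both rats numbered 4 it was 0.06, above the median of 0.03 over all miRNAs.

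**Figure D2:**
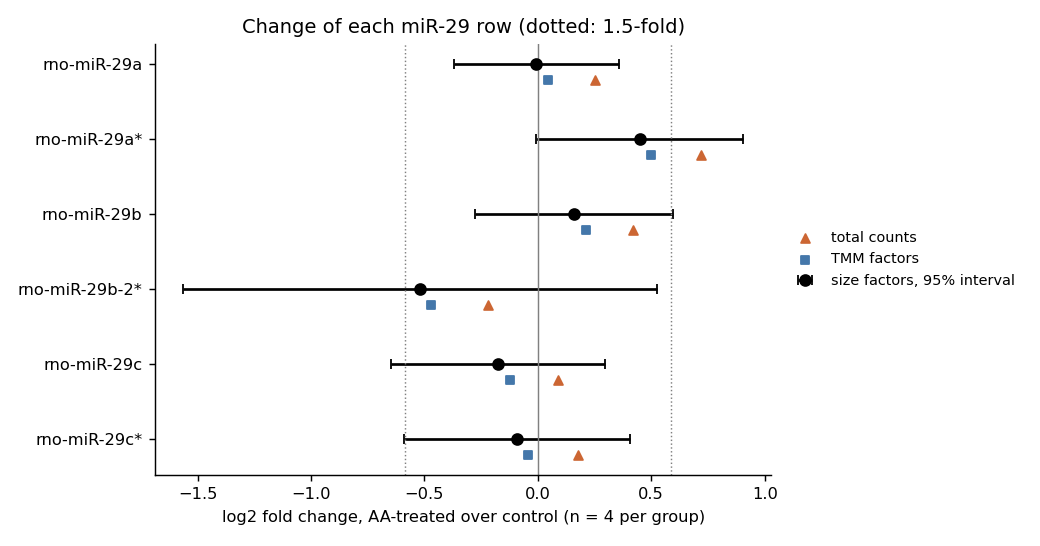
Log2 fold change (x axis, AA-treated over control, 4 rats per group) of each miR-29 row with size factors (circles with 95% intervals), TMM factors (squares) and total counts (triangles). All 6 intervals cross 0, the narrowest, from -0.37 to 0.36, is that of miR-29a, and total counts shift every row to the right.

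The 3 mature members together gave the pool of molecules with the common seed. Their sum ranged from 77635 to 102069 normalized counts among the controls and from 77841 to 108213 among the AA-treated rats. The groups covered nearly the same range, and the log2 difference of 0.01 had a p of 0.914 (exact permutation test over 70 labelings, two-sided). With total counts it was 0.27 (exact permutation p = 0.229). As a share of all miRNA counts the sum took 0.463% to 0.693% of the control libraries and 0.572% to 0.851% of the AA-treated ones, with 95% Wilson intervals of at most ± 0.00468 percentage points that cover counting error only. In every library most of the pool was miR-29a. miR-29a made up 70.7% to 73.3% of it in the controls and 68.2% to 73.9% after AA, miR-29b 17.7% to 20.6% and 20.3% to 23.8%, and miR-29c 6.94% to 8.93% and 5.79% to 8.06%. The order miR-29a, miR-29b, miR-29c thus held in all 8 rats without overlap. Reads of 22 or 23 bases were compared without a correction for length, and whether the library kit captured the 3 sequences equally was not tested.

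Ratios of counts within a library do not depend on the scaling. miR-29b over miR-29c was 2.94, 2.37, 2.56 and 1.99 in control rats 1 to 4 and 3.13, 2.95, 2.99 and 3.51 in AA-treated rats 1 to 4. The 2 groups did not overlap, although AA-treated rat 2 exceeded control rat 1 by only 0.02. The share of ratios between different miRNAs that separate the groups was not measured. The log2 difference was 0.36, with p = 0.029 in the exact permutation test (two-sided), the smallest that 4 rats against 4 allow, and 0.0857 after Benjamini-Hochberg adjustment over the 3 ratios tested. Without both rats numbered 4, which held the lowest control and the highest AA-treated value, the log2 difference was 0.21. miR-29b over miR-29a was 24.2% to 29.1% in the controls and 27.4% to 34.9% after AA (log2 difference 0.17, exact permutation p = 0.171, adjusted p = 0.229). miR-29c over miR-29a, mature members of the 2 loci, was 9.55% to 12.3% and 7.83% to 11.8% (log2 difference -0.20, exact permutation p = 0.229, adjusted p = 0.229). The latter was -0.09 without AA-treated rat 4 and -0.05 without both rats numbered 4.

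**Figure D3:**
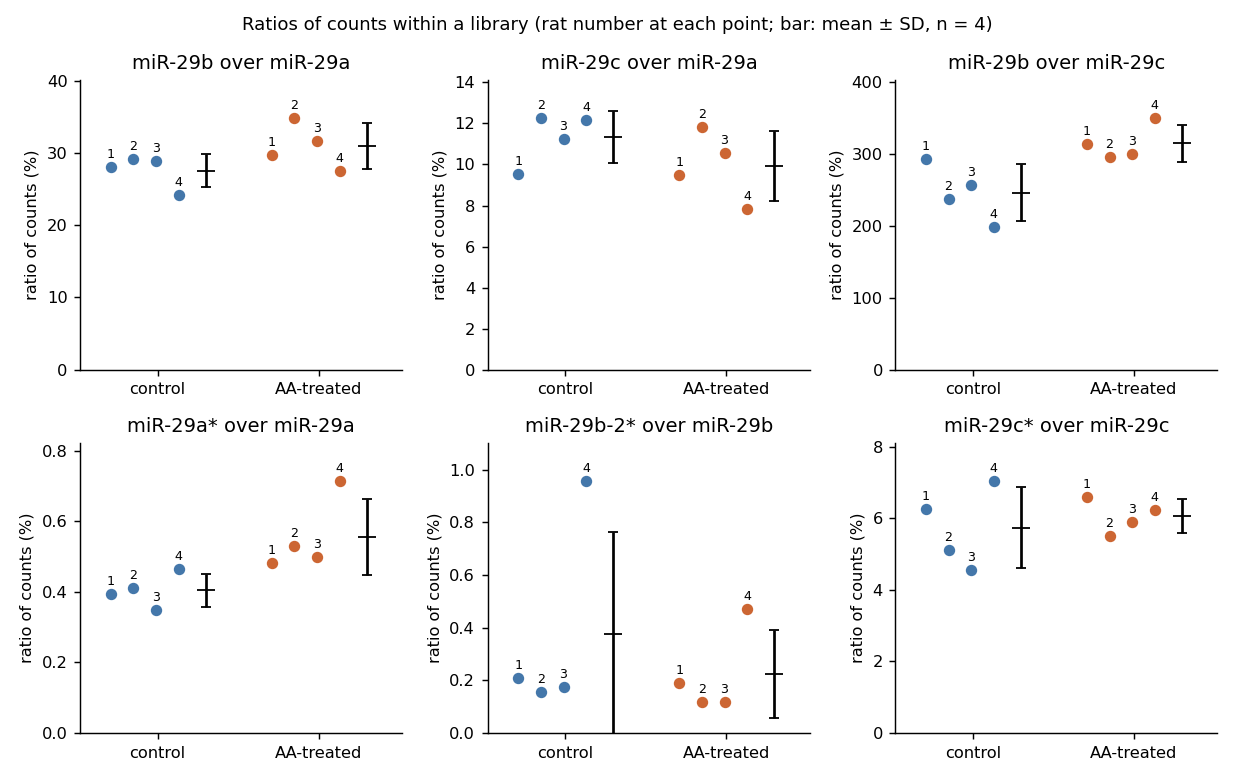
Ratios of counts within each library in percent (y axis, linear from 0) for the 3 mature members against each other (upper row) and for each passenger arm over its mature arm (lower row), with rat numbers at the points and mean ± SD bars (n = 4). The groups separate for miR-29b over miR-29c (199% to 294% against 295% to 351%) and for miR-29a* over miR-29a (0.349% to 0.464% against 0.481% to 0.715%), and overlap in the other 4 panels. The SD bar of the controls for miR-29b-2* over miR-29b extends below the axis.

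Of the passenger arms, which are mostly discarded when the mature strand is loaded into Argonaute, only miR-29a* held the groups apart in normalized counts, beside 16.3% of all 620 miRNAs, scarce ones included. miR-29a* had 260, 287, 254 and 264 normalized counts in control rats 1 to 4 and 297, 364, 380 and 411 in AA-treated rats 1 to 4. The AA-treated rats all lay above the controls, with the smallest gap between AA-treated rat 1 and control rat 2. The means were 266 ± 14.3 and 363 ± 48.0 (SD, n = 4 each), a ratio of 1.36, or 0.45 on the log2 scale (standard error 0.21, 95% interval from -0.01 to 0.91, adjusted p = 0.217 from edgeR). It thus missed both thresholds. With total counts the log2 fold change was 0.72 (adjusted p = 0.0726 from edgeR), and the adjusted p lay between 0.0667 and 0.377 over the 16 alternatives. miR-29c* had 373 to 489 normalized counts in the controls and 281 to 475 after AA (log2 fold change -0.09, 95% interval from -0.59 to 0.41, adjusted p = 0.820 from edgeR), a direction that turned to 0.18 with total counts. Its level was above that of miR-29a* in each control rat, whereas in AA-treated rat 4 it was below.

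The ratio of the arms describes the same hairpin within a library. For miR-29a* over miR-29a it was 0.395%, 0.410%, 0.349% and 0.464% in control rats 1 to 4 and 0.481%, 0.530%, 0.499% and 0.715% in AA-treated rats 1 to 4. The groups did not overlap, and AA-treated rat 4 was highest. The log2 difference of 0.45 had p = 0.029 in the exact permutation test (two-sided) and 0.0857 after adjustment over the 3 arm ratios tested. It was 0.32 without AA-treated rat 4 and 0.39 without both rats numbered 4. Among all 132 pairs of arms with a mean of at least 10 counts each, 11.4% had ratios that did not overlap between the groups, and 37.1% had a larger log2 difference in size than miR-29a. For miR-29c* over miR-29c the ratio was 4.54% to 7.05% in the controls and 5.50% to 6.61% after AA (log2 difference 0.10, exact permutation p = 0.514, adjusted p = 0.514). In counts, miR-29c* over miR-29c was thus above miR-29a* over miR-29a in each of the 8 rats. The split of counts between miR-29a and miR-29c is uncertain, and equal capture of the arms by the kit was not tested.

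miR-29b-2* was the scarcest member and was highest in the rat numbered 4 of each group. Its raw counts were 37, 29, 39 and 108 in control rats 1 to 4 and 31, 36, 29 and 91 in AA-treated rats 1 to 4. The rats numbered 4 stood far above the others in both groups, and the exact 95% Poisson intervals of 88.6 to 130 in control rat 4 and 73.3 to 112 in AA-treated rat 4 did not reach those of the other rats, of which the highest ended at 53.3. These intervals cover counting error only, not the variation between rats. In normalized counts the means were 59.8 ± 48.2 and 41.4 ± 22.0 (SD, n = 4 each), and the fitted difference was -0.52 on the log2 scale (95% interval from -1.56 to 0.53, adjusted p = 0.527 from edgeR). The difference was 0.21 without control rat 4, which leaves the high AA-treated rat 4 in, and -0.22 without both rats numbered 4. In normalized counts each AA-treated rat was below the control rat of its number, a different animal, whereas per total count AA-treated rat 2 was above control rat 2. Over mature miR-29b, miR-29b-2* reached 0.958% in control rat 4 and 0.469% in AA-treated rat 4, against 0.117% to 0.208% in the other 6 rats. The same 2 rats also had the highest arm ratio of their group for miR-29a, and control rat 4 for miR-29c. Over the 132 pairs, taking the scarcer over the more abundant arm, control rat 4 was the highest of its group in 41.7% and AA-treated rat 4 in 45.5%, against 12.9% to 23.5% for each of the other 6 rats. The part of this difference between libraries in the values of the miR-29 arms was not tested.

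The labelled tissue was checked against miRNAs known to mark the cell types of the kidney. All 8 listed miRNAs of tubule epithelium, among them miR-192, miR-194 and the miR-200 family, were detected, and their summed level was 524646 to 1267869 normalized counts in the controls and 355642 to 519671 after AA, without overlap. The lowest control and the highest AA-treated sum were close, and how often sums of several miRNAs separate the groups was not measured. Most of this sum was miR-192, which by itself overlapped between the groups (328824 to 1124304 and 205633 to 388616). Of the 8, miR-194 and miR-204 held the groups apart, beside 16.3% of all miRNAs, and miR-204 passed both thresholds, beside 9.03%. It did not pass them with TMM factors or total counts. The log2 fold changes of miR-200c and miR-141 were positive, at 0.37 and 0.08. The 4 measured leukocyte miRNAs (miR-142-3p, miR-142-5p, miR-223 and miR-150) summed to 13715 to 17802 and 29485 to 56648, also without overlap, and most of this sum was miR-142-3p. The other arm of its hairpin, miR-142-5p, overlapped between the groups (627 to 992 and 402 to 1503, log2 fold change 0.26, adjusted p = 0.632 from edgeR). By contrast, miR-142-3p, miR-223 and miR-150 held the groups apart, beside 16.3% of all miRNAs. Both thresholds were passed by miR-142-3p (log2 fold change 1.42, adjusted p = 7.92e-04 from edgeR) and miR-223 (0.96, adjusted p = 0.0231 from edgeR). Of the 4 rows 2 thus rose, beside 5.81% of all miRNAs, and 3 rose with total counts, beside 9.35%. Of the 3 mesenchyme miRNAs, which summed to 6549 to 7895 and 7788 to 13669, miR-199a-3p held the groups apart (4375 to 5232 and 5453 to 8440), and 0 passed both thresholds with the size factors (9.03% of all miRNAs) but 2 rose with total counts (9.35% of all miRNAs). The groups overlapped in this sum, and in the sums for red cells (6910 to 11910 and 2172 to 8116), endothelium (88431 to 139802 and 64017 to 114120), smooth muscle (2552498 to 3542001 and 1959386 to 2668709) and the liver miRNA miR-122 (60.4 to 735 and 10.1 to 7519), and no listed row was at 0 in all rats. The part of these cell types in the miR-29 values was not tested.

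Likeness of profile was measured as the root-mean-square difference of log2(normalized count + 1), centred on each miRNA's mean over the 8 rats, among 235 miRNAs outside the family with a mean of at least 100 normalized counts. The profile most like that of miR-29a was miR-181a, at 0.05, followed by miR-130a at 0.09 and miR-33* at 0.10. For miR-29b it was miR-301a at 0.07, followed by miR-130a at 0.10 and miR-145* at 0.12. For miR-29c it was miR-99a at 0.11, followed by miR-497 at 0.13 and miR-30c at 0.14. None of these 8 miRNAs was differentially expressed. Between the mature members the difference was 0.14 for miR-29a and miR-29b, 0.21 for miR-29a and miR-29c and 0.24 for miR-29b and miR-29c. Set among the 235 miRNAs, miR-29b would take place 14 for miR-29a and miR-29a place 8 for miR-29b, while the pairs with miR-29c would take places 18 to 38.

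Other miRNAs known from work on renal fibrosis gave the setting for the miR-29 values. Several of them, among them miR-192, are also cell type markers above, so the 2 sets of values are not separate. The lists were chosen with earlier results of these data known, so the counts of their members are descriptive and do not test the lists. Of 10 miRNAs listed as promoting fibrosis, 2 rose and 0 fell, beside 5.81% of all miRNAs that rose and 3.23% that fell, and the median log2 fold change was 0.26. miR-21, which amplifies TGF-β signalling by repressing its inhibitor Smad7, had 476470 ± 47788 normalized counts in the controls and rose to 1825992 ± 708355 after AA (SD, n = 4 each), or 1.94 on the log2 scale (adjusted p = 2.76e-04 from edgeR). miR-132, a miRNA induced in activated fibroblasts, had 136 ± 40.3 normalized counts in the controls and rose to 526 ± 81.7 after AA (SD, n = 4 each), or 1.95 on the log2 scale (adjusted p = 2.76e-04 from edgeR). miR-192, abundant in tubules, had 567860 ± 374743 and 316369 ± 86814 normalized counts (SD, n = 4 each), or -0.84 on the log2 scale, with an adjusted p from edgeR of 0.168. Of 15 miRNAs listed as limiting fibrosis outside the miR-29 family, 0 rose and 0 fell, and the median log2 fold change was -0.22. The most abundant were miR-30a, with a log2 fold change of -0.22 (adjusted p = 0.496 from edgeR), and miR-30e, with -0.42 (adjusted p = 0.200 from edgeR), both of a family enriched in the nephron. The 6 miR-29 rows, of which 3 are passenger arms, had a median of -0.05, between the medians of the 2 lists, while the median of all miRNAs was 0.05. The mature members miR-29a, miR-29b and miR-29c had log2 fold changes of -0.01, 0.16 and -0.18. With total counts 4 of the 10 miRNAs listed as promoting fibrosis rose, beside 9.35% of all miRNAs, whose median log2 fold change was then 0.31.

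**Figure D4:**
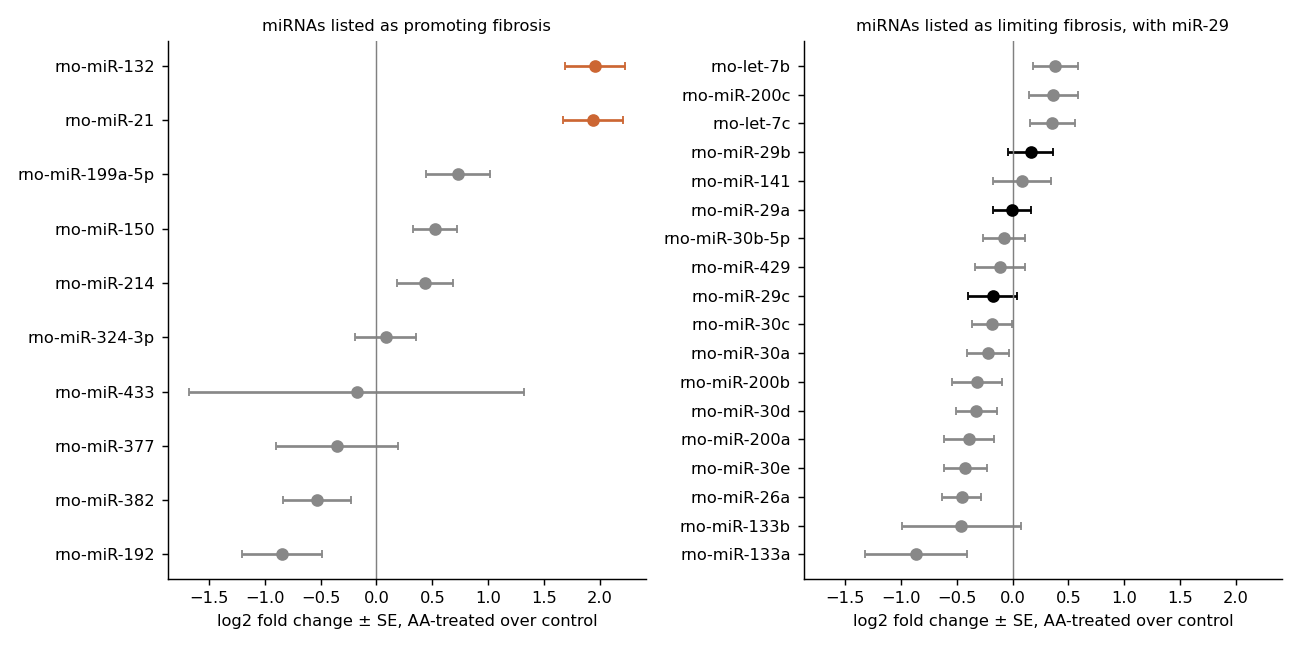
Log2 fold change ± standard error (x axis, AA-treated over control, 4 rats per group) of 10 miRNAs listed as promoting fibrosis (left) and of 15 listed as limiting it together with the 3 mature miR-29 members (right, black). The 2 miRNAs in orange, miR-21 and miR-132, passed both thresholds, and miR-29a, miR-29b and miR-29c lie between -0.18 and 0.16.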

How the data were processed

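Small RNA of 4 control and 4 AA-treated rat kidneys was sequenced (1 library for each rat). The authors selected a gel band of small RNA, masked adaptors, removed contaminated reads, assigned reads to the rat miRNAs of miRBase release 16 with miRanalyzer at default settings and deposited raw counts per mature miRNA, without normalization. The submitters' processing notes name CASAVA 1.7. Groups and rat numbers came from the sample titles. Rows, lists and tests were chosen with earlier results of these data known.

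With median-of-ratios size factors, the counts were fitted with edgeR 4.0.16 (R 4.3.3) over 620 miRNAs in all 8 rats, without covariates, with Benjamini-Hochberg adjustment. The standard error of a log2 fold change was derived as its absolute value over the square root of the F statistic of the edgeR test. Each interval was this standard error times the t quantile of the fit. Sums and ratios were compared with exact permutation tests, with 0.5 added to both arms in log2 arm ratios. Percentages and linear ratios used raw counts. Alternatives were TMM, total counts, DESeq2 1.42.0, limma-voom (limma 3.58.1), robust moderation, a filter of 10 counts in 4 rats, no fold change threshold, a replicate block, 1 added to both arms, and leaving out rats. Whether libraries of a group came from separate extractions is not given beyond 1 rat each. Depth was 13412373 to 15616670 counts, and PCR reads are not independent molecules.

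All miR-29 rows were named. Of the fibrosis lists, those passing both thresholds and the 3 most abundant others were named, and of the remaining miRNAs the 3 profiles most like each mature member.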

Additional observations from a re-analysis of the deposited data

Results flagged for a closer look

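miR-29b-2* had 132 normalized counts in control rat 4, against 31.9 to 38.5 in the other control rats, a gap that took 0.934 of the range of the group. In AA-treated rat 4 it had 74.1 normalized counts, while AA-treated rats 1 to 3 had 28.1 to 34.8, a gap of 0.855 of the range. The log2 ratio of miR-29b-2* over miR-29b was -6.70 in control rat 4, against -9.29 to -8.89 in the other control rats, a gap of 0.843. Gaps above the 95% critical value of Dixon were taken as standing apart, which chance gives in about 1 of 20 groups, and 26 groups of 4 rats were examined. The 3 gaps belong to 1 row and are not independent.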

How the results depend on the processing

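The number of miR-29 rows called was 0 under all 17 alternatives run, and no p of a sum or ratio fell under 0.05 after adjustment. For the ratios this was largely set by the design. The exact p of 4 rats against 4 cannot go below 0.029, and a single ratio at that value among 3 becomes 0.0857. The log2 fold changes of miR-29a* and miR-29b stayed positive in 16 of 16 alternatives each, and the ratios miR-29b over miR-29c and miR-29a* over miR-29a in 10 of 10 and 11 of 11. Leaving out 1 rat at a time gave log2 fold changes between -0.0902 and 0.0594 for miR-29a, 0.39 and 0.53 for miR-29a*, 0.04 and 0.27 for miR-29b, -0.95 and 0.21 for miR-29b-2*, -0.29 and -0.03 for miR-29c, and -0.20 and 0.0496 for miR-29c*, and a log2 difference of the summed members between -0.0689 and 0.0945. The log2 ratio then lay between 0.27 and 0.45 for miR-29b over miR-29c, 0.10 and 0.22 for miR-29b over miR-29a, -0.29 and -0.09 for miR-29c over miR-29a, 0.32 and 0.52 for miR-29a* over miR-29a, -0.97 and 0.0638 for miR-29b-2* over miR-29b, and -0.0103 and 0.20 for miR-29c* over miR-29c. The sign of miR-29a turned at 0.0448 with TMM factors and 0.25 with total counts, that of miR-29c at 0.0887 and of miR-29c* at 0.18 with total counts, and that of miR-29c* at 0.13 without both rats numbered 4. miRNAs listed as promoting fibrosis that rose numbered 4 with total counts. These causes were not tested.

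With the replicate block the log2 fold change of miR-29a was -0.01 and that of miR-29a* 0.44 (adjusted p = 0.141 from edgeR), that of miR-29b-2* was -0.40 (adjusted p = 0.332), and no call changed. Same-numbered rats are different animals whose deviations correlated at -0.01 to 0.34 over 370 miRNAs. The mean correlation was 0.15 for same-numbered and -0.05 for different-numbered rats, and 3 same-numbered pairs were over 0.1. The exact tests cannot go below 0.1 without both rats numbered 4 and below 0.125 in pairs, a p that all ratios but miR-29c* over miR-29c (0.5) had in pairs.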

Other observations

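The passenger arms of the loci on chromosomes 13 and 4 were set against each other after their values had been seen, so this ratio has no test. miR-29c* over miR-29a* was 1.52, 1.53, 1.47 and 1.85 in control rats 1 to 4 and 1.30, 1.23, 1.25 and 0.683 in AA-treated rats 1 to 4. The AA-treated values all lay below the control values, with AA-treated rat 4 the lowest of all. How often ratios of different miRNAs separate the groups was not measured, so this separation has no background share. The ratio of the mature members of the same loci, miR-29c over miR-29a, overlapped between the groups. Whether the ratio of the passenger arms differed from that of the mature members was not tested. miR-29a ranked 22nd, miR-29c* 167th, miR-29a* 181st and miR-29b-2* 276th of the 620 miRNAs by mean normalized count.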
